A study of Mus musculus with 4 samples.

Results

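The genes described here encode the constitutive proteasome, the protease that degrades ubiquitin-tagged proteins, with its assembly chaperones, its activators and its inhibitor. They were chosen by name, as non-control probes whose gene name is Psm, a letter from a to g and a number, leaving out the immunoproteasome subunits Psmb8, Psmb9 and Psmb10. The array carried 55 such probes for 44 genes. A gene was measured if its brightest probe was well above background, by the scanner software's own mark on more than 50% of the probe's spots, on both arrays of at least 1 genotype. This held for 42 of the 44 genes, out of 18392 genes measured in all. The rule itself uses gene names and this detection filter, and no difference between the genotypes.

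RNA came from primary kidney tubular cells of male mice aged 8 weeks on a B6.J background, 2 samples being wild type and 2 SerpinB2-/-. Every sample had a separate 1-colour array. All 4 cultures, wild type included, had received the phorbol ester PMA, an activator of protein kinase C, at 100 ng/ml, and 150 ng of total RNA was labelled. The series title names a role of PAI-2, an inhibitor of plasminogen activators encoded by Serpinb2, in kidney injury and renal ageing. The labels describe no promoter, clone or deleted segment for the SerpinB2-/- allele, and do not say whether the 2 samples of a genotype came from separate animals or cultures, so all p-values measure the spread between these samples.

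The core particle of the proteasome is a barrel of alpha and beta rings. The beta subunits Psmb5, Psmb6 and Psmb7 carry the cutting sites, and cells exposed to interferon replace them with Psmb8, Psmb9 and Psmb10. A regulatory particle caps the barrel. Its base holds the ring of ATPases that unfolds substrates, and its lid removes the ubiquitin chain. Other caps, the Psme activators, open the barrel without ubiquitin.

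For the catalytic subunit Psmb5 and its interferon-inducible counterpart Psmb8, 1 chosen pair of probes is shown. It covers a short stretch and does not measure how alike the transcripts are. The Psmb5 probe shown is the dimmer of its 2 probes, and the values of Psmb5 given further on come from the brighter one unless stated. Capitals mark the bases that match when the probes are laid side by side without gaps, 31 of 50 overlapping bases (62%). The offset with the most matches was used. The Psmb5 probe lay at chr14:55233161-55233220 on the minus strand and the Psmb8 probe at chr17:34337771-34337830 on the plus strand (mm9).
Psmb5 probe: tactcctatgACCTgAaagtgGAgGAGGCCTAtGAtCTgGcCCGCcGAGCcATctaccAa
Psmb8 probe: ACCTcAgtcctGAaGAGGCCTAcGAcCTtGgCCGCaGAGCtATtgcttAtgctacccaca

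Signals are given as multiples of the array's 75th percentile, which removes the overall brightness of an array. A probe's level depends on the probe, so levels of different genes were not read as relative amounts of their RNA. Counts above the 75th percentile and summed signals, given below, still combine different probes. Of the 42 genes, 39 lay above the 75th percentile on all 4 arrays, against 8125 of all 18392 genes. That percentile exceeded the negative controls' median 313- to 385-fold, and 0 spots were saturated. Serpinb2 itself had signals of 3047 and 3382 in wild type samples and 5.86 and 7.04, not well above background, in SerpinB2-/- samples, at least 140-fold lower.

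The constitutive proteasome differed little between the genotypes. Of 42 genes 1 rose in SerpinB2-/- cells (2.38%) and 1 fell (2.38%), by limma with Benjamini-Hochberg adjustment over all 18392 genes at a threshold of 0.05. Over all genes tested 6.01% rose and 9.67% fell, 15.7% in either direction. An unadjusted p under 0.05 by limma was found for 8 of the 42 genes (19%), against 34.2% of all genes. With median scaling 9 of the 42 genes rose and 0 fell, where over all genes 4338 rose and 1245 fell. The gene that rose was Psmg4, an assembly chaperone, and the gene that fell was Psmf1, a proteasome inhibitor. The median log2 difference, SerpinB2-/- minus wild type, was 0.03 over the 42 genes and 0.01 over all genes. The median of the 42 was -0.04 with quantile normalization and -0.01 with scaling to probes detected on all arrays, so its sign depended on the scaling. The differences of the 42 genes ran from -0.26 to 0.40.

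With the main scaling, intervals from the spread between these 4 samples bounded most of the differences. They do not cover the choice of scaling, and median scaling moved the median of the 42 genes from 0.03 to 0.165. Nor are they shown to cover the spread between animals or cultures, which the labels do not give. The 95% interval of the log2 difference lay inside -0.5 to 0.5, which is 1.41-fold either way, for 41 of 42 genes, Psmg4 being the exception. Over all genes this was so for 77% (14167 of 18392). Between single arrays of different genotype, the median absolute log2 difference of the 42 genes was 0.069 to 0.087 over the 4 pairs of arrays. It was 0.065 between the 2 wild type arrays and 0.052 between the 2 SerpinB2-/- arrays. Over all genes it was 0.138 to 0.160 between genotypes, against 0.082 and 0.080 within them. The 42 genes were bright more often than all genes, and the part of brightness in these comparisons was not tested. The scaled values of the groups did not overlap for 20 of the 42 genes, 14 with SerpinB2-/- above and 6 below, where over all genes this was so for 64.3% (32.5% above and 31.9% below). As bulk samples were used, fewer cells of a type and less RNA per cell cannot be told apart.

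**Figure D1:**
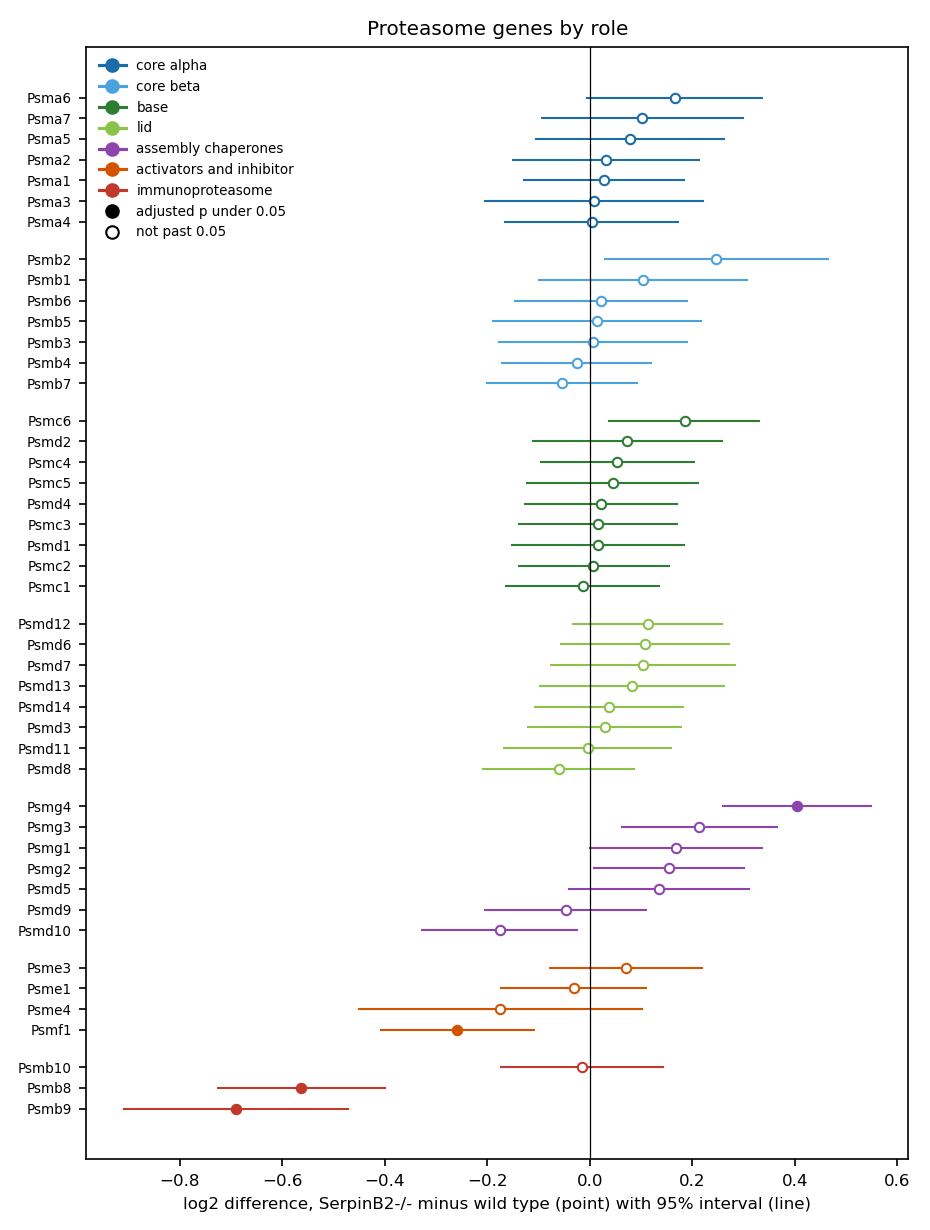
Log2 difference of each measured proteasome gene, SerpinB2-/- minus wild type, with its 95% interval, ordered by role, and the 3 immunoproteasome subunits below. Filled points passed an adjusted p of 0.05. The 14 core subunits lie between -0.05 and 0.25 with none filled, while Psmb8 and Psmb9 lie at -0.56 and -0.69.

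**Figure D2:**
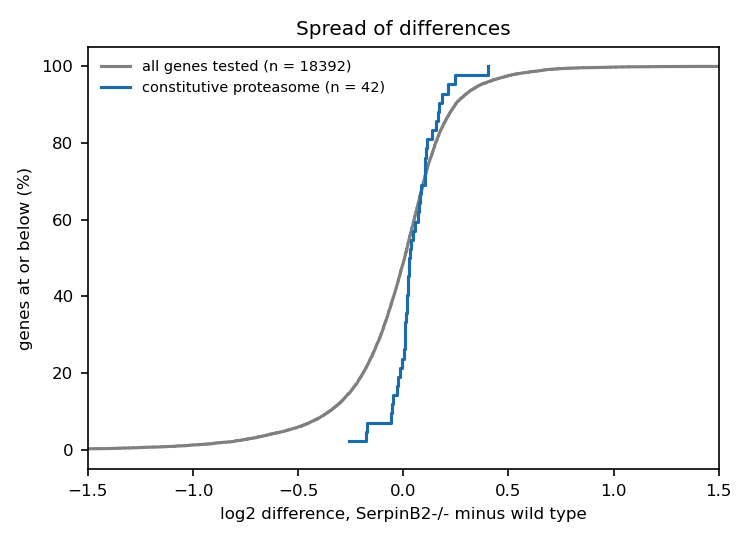
Share of genes (%) at or below each log2 difference, for the 42 constitutive proteasome genes and for all 18392 genes tested, drawn from -1.5 to 1.5. The proteasome curve is steeper, its genes running from -0.26 to 0.40.

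None of the 7 measured alpha subunits of the core, which form the outer rings and the gate, passed the threshold. By limma 0 had an unadjusted p under 0.05, against 34.2% of all genes. Their median log2 difference was 0.03. Psma6 had the highest difference, with 11.6 and 11.1 times the 75th percentile in wild type and 12.3 and 13.1 in SerpinB2-/- samples (0.17 ± 0.07 log2, SE, n = 2 per group, adjusted p = 0.154). Its groups did not overlap, alone among the alpha subunits. Psma4 had the lowest difference, at 9.87 and 9.16 in wild type and 9.63 and 9.43 in SerpinB2-/- samples (0.003 ± 0.065, adjusted p = 0.975). Both SerpinB2-/- values lay between the wild type values. Psma1, Psma2, Psma3, Psma5 and Psma7 differed by 0.03, 0.03, 0.01, 0.08 and 0.10, and their groups overlapped. Psma8, the alpha subunit of male germ cells, was not well above background on any array.

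The beta subunits form the inner rings. None of the 7 measured passed the threshold, and 1 had an unadjusted p under 0.05 by limma (14.3%, against 34.2% of all genes). The caspase-like subunit Psmb6 was at 51.7 and 49.5 times the 75th percentile in wild type and 49.8 and 52.9 in SerpinB2-/- samples (0.02 ± 0.06 log2, SE, adjusted p = 0.838). The chymotrypsin-like subunit Psmb5 was at 90.5 and 83.6 in wild type and 83.9 and 91.9 in SerpinB2-/- samples (0.01 ± 0.08, adjusted p = 0.918). For both genes the spread within a genotype exceeded the difference between genotypes. The trypsin-like subunit Psmb7 was at 8.95 and 8.66 in wild type and 8.45 and 8.52 in SerpinB2-/- samples (-0.05 ± 0.06, adjusted p = 0.545). Its difference was the lowest of the beta subunits, and its groups did not overlap.

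Of the beta subunits without a cutting site, Psmb2 had the highest difference, with 2.36 and 2.60 times the 75th percentile in wild type and 2.79 and 3.09 in SerpinB2-/- samples (0.25 ± 0.08 log2, SE, adjusted p = 0.115). Its groups did not overlap, and its 95% interval ran from 0.03 to 0.46. Psmb1, Psmb3 and Psmb4 differed by 0.10, 0.01 and -0.03, with overlapping groups. A further probe of Psmb5, the one printed above, differed by 0.06 against 0.01 at the brightest. Psmb11, the beta subunit of the thymus, was not well above background on any array.

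Of the immunoproteasome subunits, which are not among the 42 genes, Psmb8 and Psmb9 fell and Psmb10 did not pass the threshold. Psmb8 was at 0.294 and 0.284 times the 75th percentile in wild type and 0.190 and 0.201 in SerpinB2-/- samples. It fell by 0.56 ± 0.06 on the log2 scale (adjusted p = 0.0113 by limma), or 1.48-fold, a call that ended without either wild type array (adjusted p = 0.0556 and 0.0504). Psmb9 was at 0.0694 and 0.0605 in wild type and 0.0397 and 0.0406 in SerpinB2-/- samples. It fell by 0.69 ± 0.08 (adjusted p = 0.0135), 1.61-fold, and by 0.41 with normexp background correction. Psmb10 was at 10.4 and 9.84 in wild type and 10.1 and 9.89 in SerpinB2-/- samples (-0.02 ± 0.06, adjusted p = 0.877), so 2 of the 3 subunits fell.

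Within each array, the change of each immunoproteasome subunit was set against that of its constitutive counterpart. Psmb8 minus Psmb5 changed by -0.58 on the log2 scale, with SDs of 0.05 in wild type and 0.03 in SerpinB2-/- samples. Psmb9 minus Psmb6 changed by -0.71, with SDs of 0.10 and 0.04. Psmb10 minus Psmb7 changed by 0.04, with SDs of 0.02 and 0.03. For the first and second pair both SerpinB2-/- samples lay below both wild type samples by far more than the spread within a genotype. The exact two-sided permutation test gave p = 0.333 for each of the 3 pairs, also after adjustment over them, which is the smallest p that 2 samples against 2 allow. With normexp background correction the changes were -0.47, -0.42 and 0.05. Of 7 measured genes of the interferon response 3 fell (42.9%, against 9.67% of all genes) and 0 rose, with a median of -0.30. Their summed signal was 7.13 and 7.63 times the 75th percentile in wild type against 6.14 and 6.61 in SerpinB2-/- samples. Irf1, at 4.30 and 4.08 in wild type and 3.59 and 3.94 in SerpinB2-/- samples, weighed most in this sum and did not pass. Irf7 and Ifit1 were not well above background. Their part in the fall of Psmb8 and Psmb9 was not tested.

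**Figure D3:**
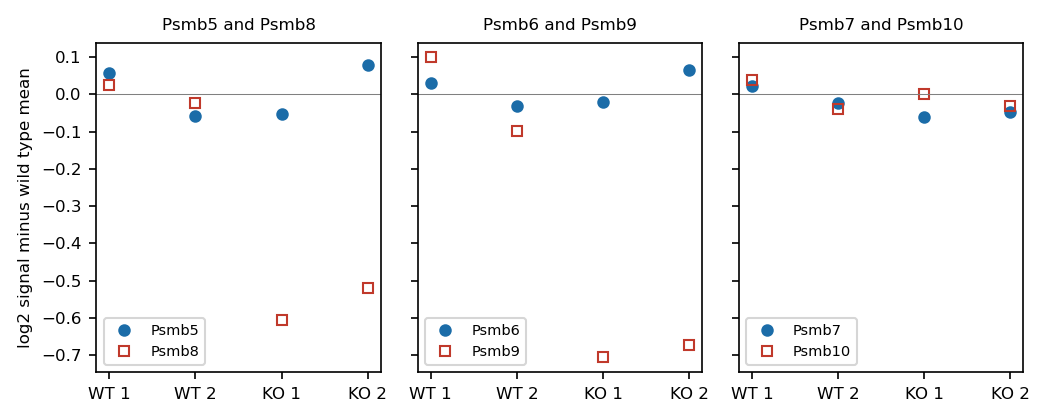
Log2 signal on each of the 4 arrays (WT, wild type, and KO, SerpinB2-/-) minus the wild type mean, for each catalytic subunit (filled circles) and the immunoproteasome subunit that replaces it (open squares). Psmb8 and Psmb9 lie near -0.5 to -0.7 on both SerpinB2-/- arrays, while Psmb5, Psmb6, Psmb7 and Psmb10 stay near 0.

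In the base of the regulatory particle 0 of 9 genes passed the threshold. By limma 1 had an unadjusted p under 0.05 (11.1%, against 34.2% of all genes). Of the 6 ATPases, Psmc6 had the highest difference. It was at 6.97 and 6.80 times the 75th percentile in wild type and 7.75 and 7.91 in SerpinB2-/- samples (0.18 ± 0.06 log2, SE, adjusted p = 0.0929). Its groups did not overlap, and it passed with median scaling and with a variance trend in the model. Psmc1 had the lowest, at 44.0 and 43.0 in wild type and 42.4 and 43.8 in SerpinB2-/- samples (-0.01 ± 0.06, adjusted p = 0.887). These groups overlapped. Psmc2, Psmc3, Psmc4 and Psmc5 differed by 0.01, 0.02, 0.05 and 0.04, and of these only the groups of Psmc4 did not overlap. The large scaffold subunits Psmd1 and Psmd2 differed by 0.02 and 0.07, and the ubiquitin receptor Psmd4 by 0.02. The median of the base was 0.02, and it was -0.04 with quantile normalization and -0.02 with scaling to probes detected on all arrays.

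In the lid 0 of 8 genes passed, and 0 had an unadjusted p under 0.05 by limma, against 34.2% of all genes. Psmd12 had the highest difference, with 26.0 and 25.4 times the 75th percentile in wild type and 27.9 and 27.7 in SerpinB2-/- samples (0.11 ± 0.06 log2, SE, adjusted p = 0.228). Its groups did not overlap, and its further probe differed by 0.02. Psmd8 had the lowest, at 17.8 and 17.2 in wild type and 16.8 and 16.7 in SerpinB2-/- samples (-0.06 ± 0.06, adjusted p = 0.498). Here too the groups did not overlap. Psmd14, the enzyme that cuts off the ubiquitin chain, was at 3.84 and 3.76 in wild type and 3.92 and 3.89 in SerpinB2-/- samples (0.04 ± 0.06, adjusted p = 0.665). Psmd3, Psmd6, Psmd7, Psmd11 and Psmd13 lay between -0.004 and 0.11.

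**Figure D4:**
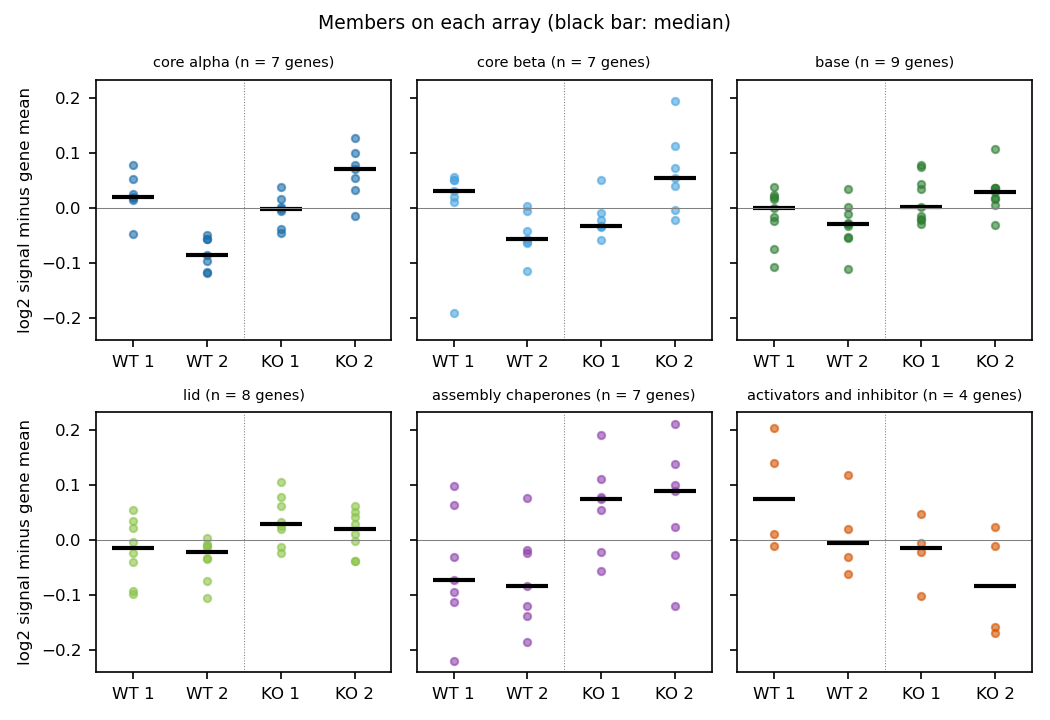
Log2 signal of each measured gene on each array (WT, wild type, and KO, SerpinB2-/-) minus that gene's mean over the 4 arrays, by role, with a black bar at the median of the role. The core medians of the 2 genotypes interleave, while for assembly chaperones they are -0.07 and -0.08 in wild type and 0.08 and 0.09 in SerpinB2-/- samples.

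Assembly chaperones gave the highest median of the 6 roles, 0.16 on the log2 scale. Its size depended on the scaling. It was 0.114 with quantile normalization, 0.117 with scaling to probes detected on all arrays and 0.29 with median scaling. Psmg1 to Psmg4 escort the alpha ring, and Psmd5, Psmd9 and Psmd10 the base. Of these 7 genes 1 rose (14.3%, against 6.01% of all genes) and 0 fell. With median scaling 5 of the 7 rose, where 4338 of all 18392 genes rose. By limma 5 had an unadjusted p under 0.05 (71.4%, against 34.2% of all genes), 4 of them upward. All 7 had groups that did not overlap, 5 with SerpinB2-/- above and 2 below, where over all genes 64.3% did not (32.5% above and 31.9% below). The Psmg4 probe lay at chr13:34269918-34269977 (mm9). Psmg4 was at 1.54 and 1.58 times the 75th percentile in wild type and 2.05 and 2.08 in SerpinB2-/- samples. It rose by 0.40 ± 0.06 (SE, adjusted p = 0.0176), 1.32-fold, and its difference ran from 0.37 to 0.54 over 16 alternative settings. The call ended whichever of the 4 arrays was left out, with adjusted p from 0.0553 to 0.0831.

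Its partner Psmg3 was at 2.64 and 2.59 in wild type and 2.97 and 3.097 in SerpinB2-/- samples (0.21 ± 0.06, adjusted p = 0.0744). Both SerpinB2-/- values were above both wild type values. Psmg1 and Psmg2, which act together as a pair, differed by 0.17 and 0.16 (adjusted p = 0.145 and 0.131), and their further probes by 0.14 and 0.20. Psmd5 differed by 0.14 (adjusted p = 0.232). Psmd10, also known as gankyrin, was at 1.70 and 1.67 in wild type and 1.52 and 1.46 in SerpinB2-/- samples (-0.18 ± 0.06, adjusted p = 0.111). It was lower in both SerpinB2-/- samples, and by 0.08 at a further probe. Psmd9 differed by -0.05 at its brightest probe and by 0.27 at the other (adjusted p = 0.0536 with every probe tested by itself). This gap of 0.32 was the widest between probes of 1 gene, among 11 genes with more than 1 measured probe, and the next was 0.09.

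The 11 proliferation markers examined all rose in the same samples, against 6.01% of all genes, with a median of 0.59. Their summed signal was 34.1 and 34.7 times the 75th percentile in wild type against 51.8 and 47.8 in SerpinB2-/- samples. Their part in the values of Psmg1 to Psmg4 was not tested.

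Among activators and the inhibitor 1 of 4 genes fell (25%, against 9.67% of all genes) and 0 rose. The median was -0.10, which became 0.03 with median scaling. The probe of Psmf1, also called PI31, lay at chr2:151555353-151555412 (mm9). Psmf1 was at 0.736 and 0.725 times the 75th percentile in wild type and 0.623 and 0.599 in SerpinB2-/- samples. It fell by 0.26 ± 0.06 on the log2 scale (SE, adjusted p = 0.0475 by limma), 1.20-fold, and both SerpinB2-/- samples lay below both wild type samples. The call stood just inside the threshold, ended in 10 of 16 alternative settings and ended whichever array was left out, while the difference ran from -0.30 to -0.12.

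Psme4, the large nuclear activator, was at 1.02 and 0.865 in wild type and 0.879 and 0.785 in SerpinB2-/- samples (-0.17 ± 0.11, adjusted p = 0.310). Its groups overlapped, and its further probe gave -0.25. Psme3, the nuclear activator of the gamma type, differed by 0.07 ± 0.06 (adjusted p = 0.434). Psme1, an interferon-inducible activator chain, was at 5.91 and 5.95 in wild type and 5.78 and 5.83 in SerpinB2-/- samples (-0.03 ± 0.05, adjusted p = 0.715). The 95% interval for Psme1 ran from -0.17 to 0.11. The partner chain Psme2 was not measured under its own name. The 3 probes named Psme2b, a copy closely related to Psme2 that shares sequence with it, differed by -0.10, -0.12 and -0.75 (adjusted p = 0.383, 0.231 and 0.00847 by limma with every probe tested by itself), so that 1 of the 3 fell. Which of the 2 genes each probe read is uncertain. The probe that fell was the dimmest, at 0.1965 and 0.1906 in wild type and 0.1207 and 0.1103 in SerpinB2-/- samples. The brightest, at 30.34 and 27.95 in wild type and 26.4 and 27.98 in SerpinB2-/- samples, did not pass.

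In a list of 38 other measured genes, chosen around the ubiquitin-proteasome system and Psmc3ip, 2 rose and 1 fell (7.89% called, against 15.7% of all genes), and 35 did not pass. The list's median was 0.02. Ube3c, a ubiquitin ligase that binds the proteasome, rose by 0.25 ± 0.06 (adjusted p = 0.0476), a call that ended in 9 of 16 alternative settings. Psmc3ip, a recombination factor and not a subunit of the proteasome, rose by 0.48 ± 0.05 (adjusted p = 0.0115). Sqstm1, the ubiquitin-binding receptor of autophagy, was at 3.28 and 3.32 times the 75th percentile in wild type and 2.18 and 2.31 in SerpinB2-/- samples, and fell by 0.56 ± 0.06 (adjusted p = 0.0110). Without wild type replicate 1 or 2 the calls ended for Psmc3ip (adjusted p = 0.058 and 0.057) and Sqstm1 (0.0514 and 0.0549).

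Nfe2l1, the transcription factor that raises proteasome genes when the protease is blocked, was at 0.397 and 0.365 in wild type and 0.305 and 0.320 in SerpinB2-/- samples (-0.28 ± 0.07, adjusted p = 0.0596). Its groups did not overlap, and it passed in 2 of 16 alternative settings. The maturation factor Pomp (-0.01), the ubiquitin receptor Adrm1 (-0.03) and the related factor Nfe2l2 (-0.08) had overlapping groups. The deubiquitinases of the proteasome, Usp14 and Uchl5, differed by 0.15 and 0.21 (adjusted p = 0.167 and 0.0897). Their groups did not overlap either, and each passed in 2 of 16 alternative settings.

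Promoters are shown for the 2 genes that passed, Psmg4 and Psmf1, and for the pair Psmb5 and Psmb8. Each runs from 250 bases before to 50 bases after the start of the gene (RefSeq, GRCm38.p6), and such windows were found for 35 of the 42 genes. Capitals mark matches on either strand to 4 motifs, each searched by itself so that matches could overlap. These were TGACNNNGC, the core of the antioxidant response element bound by the Nfe2l factors, CCAAT, GAAA, then NN, then GAAA of the interferon-stimulated response element, and TTCNNNGAA of the gamma-activated sequence.
Psmg4 chr13:34162714-34163013 plus strand: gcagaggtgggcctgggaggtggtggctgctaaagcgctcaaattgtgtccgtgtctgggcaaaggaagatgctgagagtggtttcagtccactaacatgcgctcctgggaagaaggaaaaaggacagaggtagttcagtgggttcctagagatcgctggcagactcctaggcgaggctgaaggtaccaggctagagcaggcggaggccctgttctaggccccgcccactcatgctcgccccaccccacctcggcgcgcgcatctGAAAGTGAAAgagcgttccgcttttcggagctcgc
Psmf1 chr2:151741261-151741560 minus strand: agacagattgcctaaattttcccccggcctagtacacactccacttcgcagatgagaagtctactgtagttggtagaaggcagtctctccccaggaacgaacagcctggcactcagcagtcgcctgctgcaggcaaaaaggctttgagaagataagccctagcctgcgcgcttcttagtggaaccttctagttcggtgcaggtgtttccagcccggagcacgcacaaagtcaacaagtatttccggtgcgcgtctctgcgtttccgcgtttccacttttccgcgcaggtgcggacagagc
Psmb5 chr14:54617946-54618245 minus strand: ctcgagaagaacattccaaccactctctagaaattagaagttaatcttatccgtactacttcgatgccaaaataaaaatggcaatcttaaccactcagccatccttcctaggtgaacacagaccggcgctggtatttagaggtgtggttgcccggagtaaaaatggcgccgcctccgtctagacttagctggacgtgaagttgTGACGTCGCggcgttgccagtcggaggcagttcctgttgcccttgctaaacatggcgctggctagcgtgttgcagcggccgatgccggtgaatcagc
Psmb8 chr17:34197945-34198244 plus strand: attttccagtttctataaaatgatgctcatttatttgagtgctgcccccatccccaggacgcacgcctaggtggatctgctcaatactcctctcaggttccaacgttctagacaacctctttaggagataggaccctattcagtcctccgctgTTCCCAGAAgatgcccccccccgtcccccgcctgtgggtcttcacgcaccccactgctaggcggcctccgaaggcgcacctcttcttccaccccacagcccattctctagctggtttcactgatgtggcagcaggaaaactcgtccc

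The window of Psmg4 held an interferon-stimulated core, that of Psmb5 an antioxidant core and that of Psmb8 a gamma-activated core, while that of Psmf1 held none of the 4. Psmb6 held an antioxidant core as well. The window of Psmb9, which fell like Psmb8, held CCAAT and neither the interferon-stimulated nor the gamma-activated core. Of the 35 promoters 6 (17.1%) held the antioxidant core, against 14.0% of 27025 genes with a window, and 12 (34.3%) held CCAAT, against 41.1%. The interferon-stimulated core was in 5 (14.3%), against 3.99%, and the gamma-activated core in 2 (5.71%), against 9.55%. A match is a run of letters, not a bound site, and these shares were not tested.

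The cells carried epithelial transcripts, with all 6 epithelial markers measured, of which 4 fell and 0 rose in SerpinB2-/- samples. Beside this and the marker counts that follow, 9.67% of all genes fell and 6.01% rose. Of 12 proximal tubule markers 10 were measured, not Slc5a2 and Slc22a8, with 1 higher and 1 lower and a summed signal of 3.29 and 3.46 in wild type against 3.28 and 3.47 in SerpinB2-/- samples, in multiples of the 75th percentile. Of 8 distal markers Umod, Slc12a1, Slc12a3 and Calb1 were not measured, and 3 of the other 4 fell. Leukocyte markers fell in 7 of 11 measured genes, with a summed signal of 12.5 and 13.8 against 10.4 and 10.9, and endothelial markers in 6 of 7, with 4.55 and 4.63 against 2.88 and 3.52. Fibroblast markers rose in 2 of 7, with 66.7 and 77.9 against 87.5 and 96.7. Bright probes weigh most in such sums. Lrp2, at 2.00 and 1.88 in wild type and 1.91 and 1.99 in SerpinB2-/- samples, weighed most in the proximal tubule sum. It did not pass the threshold. Itgam, at 6.27 and 5.66 in wild type, weighed most in the leukocyte sum, and Kdr, at 2.49 and 2.12, in the endothelial sum. Neither gene passed the threshold, nor did Col1a1 and Col1a2, which weighed most in the fibroblast sum. Tek and Lum were not well above background. The part of these shifts in the proteasome values was not tested. The summed signal of the 42 proteasome genes was 829 and 866 in wild type and 851 and 884 in SerpinB2-/- samples, so the genotypes interleaved.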

How the data were processed

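The deposited intensity values came from Agilent Feature Extraction 10.7.3.1, per the file headers, which had taken off a background, detrended each array and put surrogates in place of dim signals. The arrays shared 1 slide and 1 scan, and position on the slide cannot be told apart from genotype. Positions in the files are on build mm9. The authors' deposited table of intensity values, with every column's 75th percentile at 1500 and its lowest value at 4, served as an alternative; how it was made is not given in the sources used here.

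Control spots and spots marked as outliers were left out, the remaining spots of a probe (up to 4) were averaged on the log2 scale, and the array's 75th percentile over 39429 probes was subtracted. Probes with more than 50% of spots well above background on both arrays of at least 1 genotype were kept, and the brightest stood for its gene. Names of other genes were updated through a RefSeq table of GRCm38.p6 (28328 probes by accession, 243 by older symbol). Of the 42 probes used here, 10 of 60 bases spanned more of the genome than their length; the files give no exon annotation.

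The 18392 genes were fitted with limma 3.58.1 in R 4.3.3 (lmFit and eBayes), SerpinB2-/- minus wild type; p-values were adjusted by Benjamini-Hochberg and called under 0.05. Intervals are 95%, from the moderated standard error, and not adjusted for the number of genes. The procedure was tested on simulated data, but no outcome of that test is given here. It is therefore not shown how well the calls hold with 2 samples per genotype. Precision is limited by the number of arrays. The genes and lists were chosen with earlier results of these data known. Named were all genes past the threshold, the highest and lowest of each role, the core, ATPase and activator genes, and fixed neighbours in the pathway. The alternatives covered background correction, normalization, scaling, the authors' table, filters on dim probes, the choice of probe, outlier spots, the variance model, the threshold, the replicate number as a block and each array left out.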

Additional observations from a re-analysis of the deposited data

How the results depend on the processing

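The count of constitutive proteasome genes that passed was 1 higher and 1 lower. The higher count was 9 with median scaling, where all genes had a median of 0.141 and the 42 genes one of 0.165, 3 with a variance trend, 3 at a threshold of 0.1, and 0 at 0.01 or with dim probes kept. The lower count was 0 with normexp, quantile normalization, median scaling, the authors' table, dim probes kept, the replicate block or a threshold of 0.01. Leaving out any 1 array gave 0 and 0, the lone sample of its genotype being assumed to vary like the other group. The median of the 42 genes was -0.035 with quantile normalization and -0.008 with scaling to probes detected on all arrays, and 14 and 13 of the 42 genes then had the opposite sign. The median of the base turned to -0.035 and -0.017 in these settings, and that of activators and inhibitor to 0.032 with median scaling.

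Over all genes 1105 rose and 1779 fell. With median scaling 4338 rose and 1245 fell, with dim probes kept 1 and 2, with a variance trend 1738 rose, and with arrays left out 209 to 497 rose and 536 to 1082 fell. Deviations of same-numbered arrays correlated at 0.26 over genes, and no label says that a number marks a shared animal or day. With the replicate block 689 rose over all genes, Psmg4 kept its call (adjusted p = 0.0356 by limma) while Psmf1 (0.123) and Ube3c (0.134) lost it. Psmb8 lost its call without wild type replicate 1 (0.0556), without wild type replicate 2 (0.0504) and with dim probes kept (0.076), and Psmb9 with dim probes kept (0.0774). The cause of these shifts was not tested. No slide block could be fitted, as there was 1 slide.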
